A study of Mus musculus with 121 samples.

Results

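The difference between J20 transgenic (TG) mice and their wild-type (WT) littermates was compared between the older ages, 10 and 12 months pooled (the late period), and the younger ages, 6 and 8 months pooled (the early period). The J20 mice were all 62 mice of that line among the 121 mice of the series, chosen by the line, genotype and age that their labels give. The RNA came from the entorhinal cortex of the left hemisphere of female mice perfused with phosphate-buffered saline, 1 library per mouse. TG mice were hemizygous for human APP carrying the Swedish and Indiana mutations under the PDGFB promoter, which is active mainly in neurons, and WT mice were littermates without the transgene. Both were bred on a C57BL/6JOlaHsd background from hemizygous males and WT females, and they differed by no label other than genotype and age.

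There were 8 TG and 8 WT mice at 6 months, 7 TG and 8 WT at 8 months, 7 TG and 8 WT at 10 months, and 8 TG and 8 WT at 12 months. The early ages thus held 15 TG and 16 WT mice, and so did the late ages. Each mouse was sampled at a single age, so that age was compared between animals. The change in the TG minus WT difference from the early to the late ages is called the switch here, and it is positive where TG moved up relative to WT.

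J20 mice deposit amyloid-β, the peptide cut from APP, in plaques as they age. Microglia, the resident macrophages of the brain, gather at such plaques and take on a state known as disease-associated, in which genes for lysosomal proteins, lipid handling and certain surface receptors are raised. Cst7 encodes cystatin F, an inhibitor of the lysosomal cysteine proteases. Itgax encodes integrin alpha X (CD11c), a subunit of the complement receptor 4. Clec7a encodes dectin-1, a receptor for fungal glucans. All are widely used labels of that state, and quiescent microglia carry little of their RNA. In whole tissue, a change in the number of cells of a type cannot be told apart from a change in the RNA of each cell.

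The labels were checked first on App itself, whose mouse gene shares most of its sequence with the transgene. App counts, scaled by library size factors (normalized counts), ran from 17647 to 27267.5 in WT mice and from 29479.7 to 42498 in TG mice at the early ages. At the late ages they ran from 17809 to 28064 in WT and from 32209.9 to 43064 in TG. All 15 TG mice stood above all 16 WT mice in each period. The TG minus WT difference was 0.67 on the log2 scale early and 0.78 late, and its switch was 0.11 (95% interval -0.04 to 0.27, unadjusted p = 0.15 in edgeR's quasi-likelihood test). Library totals ran from 8364862 to 17905432 counts, with a median of 13731955, and the 4 combinations of genotype and period overlapped. Markers of cortical excitatory neurons summed to between 7379 and 10300 CPM (counts scaled to the library total) in every mouse, so the defining markers of cortex were present. Markers of lymphocytes and monocytes summed to 0.975 to 7.88 CPM, the blood marker Alas2 to 0.087 to 7.67 CPM, and markers of the choroid plexus to 11.7 to 72.6 CPM. Alas2 was highest in WT 12 months replicate 2. Of the 5 blood markers listed it was the only 1 tested, since the globin genes were not among the genes tested. The choroid plexus sum was highest in WT 10 months replicate 2, TG 12 months replicate 1 and WT 10 months replicate 4. These 3 mice had 72.6, 67.6 and 52.1 CPM, beside a median of 18.2 CPM. Markers of photoreceptors and the pineal gland lay between 2.42 and 6.27 CPM except in WT 12 months replicate 3, at 38.8 CPM, so that this library stood apart.

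Of 18878 genes tested, 2 passed the switch test at an adjusted p under 0.05, which is 0.0106% of them. They were Cst7 and Itgax, and both were positive. DESeq2, another count model, called the same 2 genes. At an unadjusted p under 0.05 edgeR found 589 genes with a positive switch, 3.12% of all, and 501 with a negative one, 2.65%, against 940 in both directions for DESeq2. The median switch over all genes was 0.00 on the log2 scale.

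The promoters of both genes are shown because they are the genes that carry the switch. Both windows are from RefSeq (GRCm38.p6), on the plus strand, from 250 bases before to 50 bases after the start that RefSeq gives, and both of the genes searched for were found there. The capitals mark a match to TGANTCA, where N is any base, a pattern that reads the same on both strands. It is looser than TGA(C/G)TCA, the core of the site bound by AP-1 (Fos and Jun dimers). The Itgax match, TGAGTCA, has that core, and the Cst7 match, TGATTCA, does not.
Cst7 promoter, chr2:150570165-150570464: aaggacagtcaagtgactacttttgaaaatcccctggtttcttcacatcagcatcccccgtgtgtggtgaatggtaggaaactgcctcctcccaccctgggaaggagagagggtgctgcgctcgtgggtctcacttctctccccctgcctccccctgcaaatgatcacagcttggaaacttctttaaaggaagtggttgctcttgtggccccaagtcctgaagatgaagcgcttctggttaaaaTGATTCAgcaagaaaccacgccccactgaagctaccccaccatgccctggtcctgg
Itgax promoter, chr7:128129300-128129599: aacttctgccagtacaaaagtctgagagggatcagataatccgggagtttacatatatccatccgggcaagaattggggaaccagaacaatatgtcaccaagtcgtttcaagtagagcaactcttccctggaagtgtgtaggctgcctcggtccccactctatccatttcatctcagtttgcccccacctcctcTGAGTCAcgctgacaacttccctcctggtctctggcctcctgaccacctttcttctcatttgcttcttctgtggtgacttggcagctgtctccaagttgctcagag
Each window held 1 match, and 7.81% of the 32817 mouse promoter windows of this length hold at least 1. Neither window held GAGGAAGT, the letter run searched for as the PU.1 site, or CACGTG, the E-box, on either strand. These letter runs occur in 3.2% and 7.15% of the windows. The shorter GGAA within GAGGAAGT was not searched for, and both printed windows hold it. The matches are a description of sequence only, and no binding was measured. Gene positions below are those of the deposited table (mm10), which places the start of Itgax slightly further along than RefSeq does.

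Cst7 (chr2:150570415-150578944, plus strand) was low in every group but late TG mice. At the early ages WT mice had 2.35 to 20.4 normalized counts with a median of 4.51, and TG mice 2.86 to 11.2 with a median of 5.02. At the late ages WT mice had 1.6 to 18.6 with a median of 4.39, and TG mice 8.85 to 88.4 with a median of 26.0. All early TG mice lay within the WT range, with 3 of 16 WT mice above every TG mouse, whereas 11 of the 15 late TG mice were above all 16 late WT mice. The TG minus WT log2 fold change was -0.17 early (SE 0.332, adjusted p = 0.891) and 2.49 late (SE 0.279, adjusted p = 9.5e-09). The switch was 2.66 (SE 0.441, 95% interval 1.77 to 3.54, adjusted p = 0.0019).

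The single ages fell into the same periods. The TG minus WT log2 fold change of Cst7 was -0.16 at 6 months and -0.18 at 8 months, then 2.72 at 10 months and 2.25 at 12 months. The TG medians were 7.37 and 3.69 normalized counts at 6 and 8 months and 20.6 and 26.5 at 10 and 12 months, with ranges of 8.85 to 46.3 and 14.0 to 88.4 at the latter ages. The TG ranges at 10 and 12 months overlapped. Within TG mice the late minus early log2 difference of Cst7 was 2.26 (SE 0.280, adjusted p = 5.7e-07), and within WT mice it was -0.40 (SE 0.333, adjusted p = 0.640). These 2 differences are the parts of the switch itself and share its mice. In all, 8 genes passed the late minus early test in TG mice, 0.0424% of those tested, and all 8 rose, among them Cst7 and Clec7a. In WT mice 132 genes passed, 0.699%, of which 61 rose and 71 fell.

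Itgax (chr7:128129568-128150657, plus strand) gave the same order at smaller size. Early WT mice had 2.79 to 35 normalized counts with a median of 13, and early TG mice 10.0 to 27.3 with a median of 14.1. Late WT mice had 4.95 to 17.5 with a median of 9.65, and late TG mice 7.37 to 56.8 with a median of 28.8. The early groups overlapped, with 3 WT mice above every TG mouse, and 11 of 15 late TG mice were above all late WT mice. The log2 fold change was -0.08 early (SE 0.228, adjusted p = 0.928) and 1.62 late (SE 0.224, adjusted p = 3.7e-06), and the switch was 1.71 (SE 0.322, 95% interval 1.07 to 2.35, adjusted p = 0.0142). At 6, 8, 10 and 12 months it was 0.03, -0.20, 1.77 and 1.48.

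For Itgax the late minus early log2 difference was 0.95 in TG mice (SE 0.216, adjusted p = 0.0709) and -0.76 in WT mice (SE 0.238, adjusted p = 0.112), so that neither passed on its own although their difference did. The components of the 2 genes were not tested against each other.

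**Figure D1:**
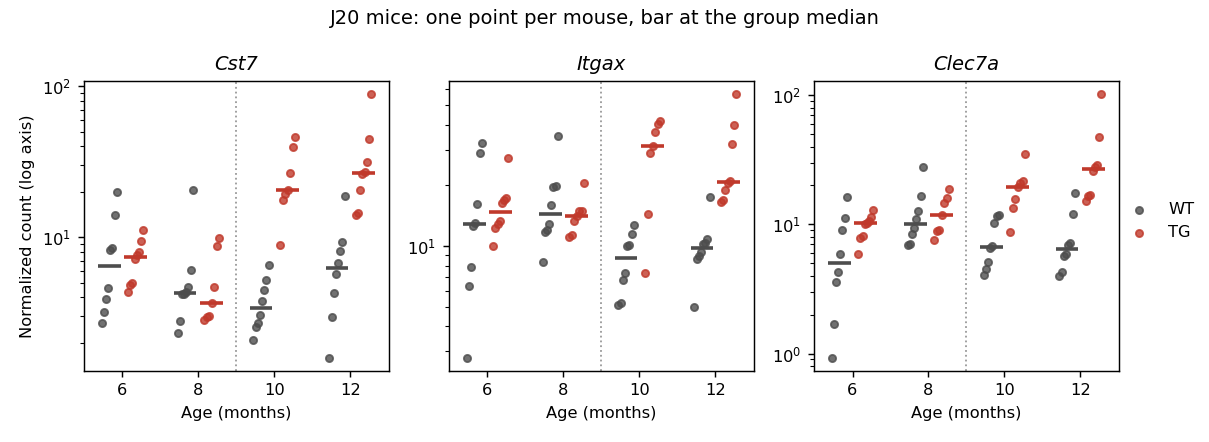
Normalized counts of Cst7, Itgax and Clec7a on a log axis against age in months, 1 point per J20 mouse, grey for WT and red for TG, with a bar at the median of each group and a dotted line between the early and late ages. TG and WT points lie together at 6 and 8 months, and 11, 11 and 9 of the 15 late TG mice lie above all late WT mice for the 3 genes in that order.

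Both calls were held in all 62 fits that left out 1 mouse. The Cst7 switch ranged from 2.42, without WT 8 months replicate 4, to 2.81, without WT 12 months replicate 3, and its adjusted p reached at most 0.0117. The Itgax switch ranged from 1.58, without WT 6 months replicate 5, to 1.79, without WT 6 months replicate 8, and its adjusted p reached at most 0.0434. With WT 8 months replicate 4 and WT 12 months replicate 3 left out together, 2 mice chosen after their high values were seen, the switches were 2.58 and 1.67 (adjusted p = 0.0018 and 0.0187). With single ages, no gene passed for 12 against 6 months, or for 10 against 8 months, with 1139 and 589 genes at an unadjusted p under 0.05. Both genes had few counts per mouse, which limits the precision of each value.

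Clec7a (chr6:129461591-129472777, minus strand), whose late call is described here because its product marks the same state of microglia, did not pass the switch test. Late WT mice had 4.00 to 17.5 normalized counts with a median of 6.64, and late TG mice 8.68 to 102 with a median of 21.1, of which 9 of 15 were above all WT mice. Early WT mice had 0.930 to 27.7 with a median of 8.69, and early TG mice 5.86 to 18.7 with a median of 10.3, all within the WT range. The log2 fold change was 1.76 late (SE 0.255, adjusted p = 1.1e-05) and 0.29 early (SE 0.279, adjusted p = 0.727). Its switch was 1.47 (SE 0.383, 95% interval 0.71 to 2.24) at an unadjusted p of 2.8e-04, and the adjusted p was 0.759. None of the 62 fits without a mouse called it either, with values from 1.24, without TG 12 months replicate 7, to 1.59.

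Considered period by period, 23 genes (0.122% of those tested) passed at the late ages, 15 higher and 8 lower in TG, and 24 genes (0.127%) passed at the early ages, 10 higher and 14 lower. The early count ran from 7 to 99 when 1 mouse was left out and was 146 with RNA integrity as a covariate. The late count was 42 with DESeq2, 3 for the inner ages (10 months) and 15 without TG 10 months replicate 7. The overlaps below rest on these counts. Only 4 of them passed in both periods. These were App, whose sequence is shared with the transgene, Ccdc80 and Gm19522, both on chromosome 16, and Unc13c, which encodes a protein that primes synaptic vesicles. Of the 19 that passed late only, 2 passed the switch test, and of the 20 that passed early only, none did. A call in one period and not in the other is not in itself a difference between periods, and 15 of the 19 and 18 of the 20 had the same sign in both. At an unadjusted p under 0.05, 10 of the 19 and 4 of the 20 had a switch, beside 3.12% of all genes with a positive and 2.65% with a negative one, although the switch shares the values on which these calls were made. At an unadjusted p under 0.05 in both periods, 329 genes had the same sign and 18 the opposite sign, of which 12 were lower early and higher late.

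**Figure D2:**
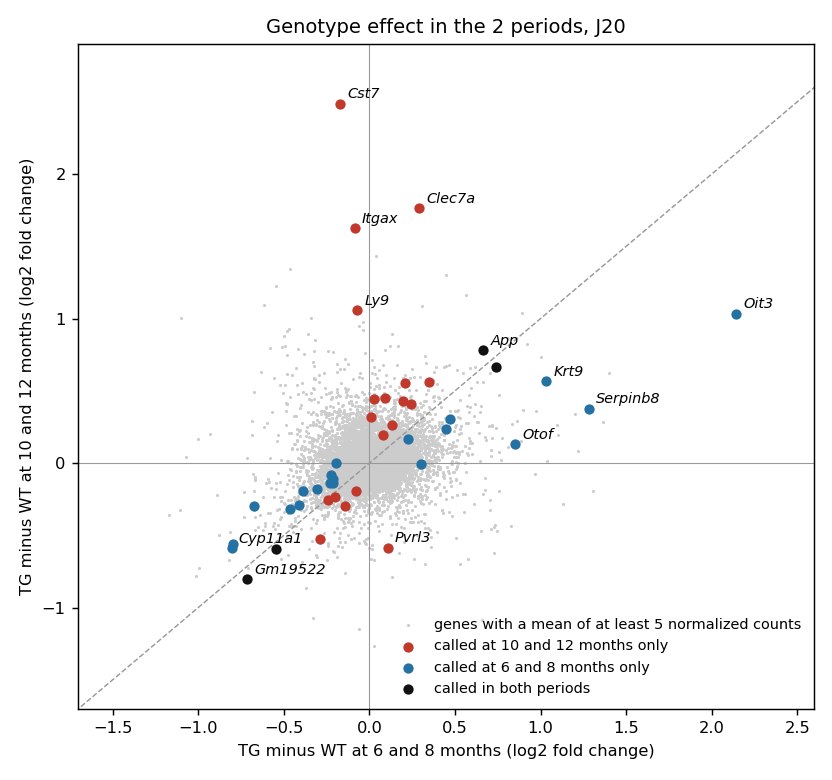
TG minus WT log2 fold change at 10 and 12 months (vertical) against that at 6 and 8 months (horizontal), 1 point per gene, with the dashed line at equal values, and genes that passed in the late period only (red), the early period only (blue) or both (black). Cst7, Itgax, Clec7a and Ly9 lie near 0 on the early axis and at 2.49, 1.62, 1.76 and 1.06 on the late axis, whereas App lies near the dashed line.

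The other late calls that were higher in TG mice included Cd68, Ly9, Gfap, Prss12, Nsdhl and Acat2. By list, none of 26 lysosome genes, 1 of 24 reactive astrocyte genes (Gfap) and 2 of 24 cholesterol synthesis genes (Nsdhl and Acat2) passed late, beside 0.122% of all genes. Cd68, a lysosomal glycoprotein of phagocytes, ran from 138 to 220 normalized counts in late WT mice (median 168) and from 172 to 296 in late TG mice (median 234). Of the late TG mice 11 of 15 were above all WT mice, while early TG mice (142 to 251, median 199) overlapped early WT mice (152 to 236, median 184) and 3 stood above them. The log2 fold change was 0.45 late (adjusted p = 2.1e-04) and 0.09 early, with a switch of 0.36 (SE 0.105, unadjusted p = 0.0011, adjusted p = 0.759). Ly9, a SLAM-family receptor of immune cells, was 1.06 higher late (adjusted p = 0.0182) and -0.07 early, with a switch of 1.13 (SE 0.320, adjusted p = 0.759). Its late ranges overlapped, at 4.19 to 25.6 in WT (median 9.02) and 9.77 to 32.5 in TG (median 20.2), and its late call was lost without TG 10 months replicate 3.

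Gfap and Prss12 had positive values in both periods and passed in the late one. Gfap, the intermediate filament of astrocytes, had a log2 fold change of 0.56 late (adjusted p = 0.0052) and 0.35 early (adjusted p = 0.164), and a switch of 0.21 (95% interval -0.09 to 0.52). Prss12, which encodes the synaptic protease neurotrypsin, separated almost fully at the late ages, with 14 of 15 TG mice (277 to 406 normalized counts) above all WT mice (222 to 299). Its log2 fold change was 0.43 late (adjusted p = 1.2e-04) and 0.20 early (adjusted p = 0.247), and its switch of 0.23 did not pass (adjusted p = 0.832). Nsdhl, a dehydrogenase of cholesterol synthesis, was 0.27 higher late (adjusted p = 0.0028), and Acat2, an acetyl-CoA acetyltransferase grouped with that pathway, 0.19 higher (adjusted p = 0.0053). Their switches were 0.13 and 0.11. For these genes the interval of the switch reached 0 or near it, which leaves a difference between periods unresolved, not absent.

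The list of disease-associated microglia genes had 30 of its 30 members tested. The switch passed for 2 (Cst7 and Itgax), and the late test for 4 (those and Clec7a and Cd68), all higher, with no member passing early, beside 0.0106% of all genes for the switch, 0.122% late and 0.127% early. The late minus early change passed in TG for 2, both higher, and in WT for 2, both lower (Cybb, a subunit of the phagocyte NADPH oxidase, and B2m, the light chain of MHC class I), beside 0.0424% and 0.699% of all genes. The list's median switch was 0.29, beside 0.00 over all genes, and 15 members had a positive and 1 a negative switch at an unadjusted p under 0.05, beside 3.12% and 2.65% of all genes. Members that did not pass included Trem2, a lipid-sensing receptor of microglia, at 0.43 (unadjusted p = 0.013), its adaptor Tyrobp at 0.37 (0.012), the lysozyme gene Lyz2 at 0.47 (0.022), and Apoe, the lipid carrier, at 0.12 (0.35). Trem2 ran from 123.7 to 433.4 normalized counts in early WT mice, 185.3 to 323.0 in early TG, 159.4 to 342.5 in late WT and 218.3 to 461.7 in late TG, so that all 4 groups overlapped. Lpl, lipoprotein lipase, was the member on the other side, with a switch of -0.56 (unadjusted p = 0.043).

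Genes of the resting state of microglia did not pass between TG and WT. Of 18 homeostatic microglia genes, none passed the switch, late or early test, 3 had a positive switch at an unadjusted p under 0.05, and their median switch was 0.09 (0.16 for 10 against 8 months and 0.04 for 12 against 6 months). From the early to the late ages 1 member fell in WT mice, Olfml3, a secreted glycoprotein (-0.32, adjusted p = 0.0194), and none passed in TG mice, beside 0.699% and 0.0424% of all genes. P2ry12, a purine receptor of microglial processes, had a switch of -0.11, Tmem119 0.19 and Cx3cr1, the fractalkine receptor, 0.12, none with an unadjusted p under 0.05. The summed CPM of this list had medians of 1537 in early WT, 1467 in early TG, 1467 in late WT and 1441 in late TG. For 16 complement genes the median switch was 0.35, with 9 positive and none negative at an unadjusted p under 0.05, beside 3.12% and 2.65% of all genes, and none past the adjusted threshold. C1qa, C1qb and C1qc, the chains of C1q, had switches of 0.36, 0.34 and 0.32. C4b, a complement component of glia, had the smallest p of the list, with a switch of 0.68 (SE 0.170, unadjusted p = 1.9e-04, adjusted p = 0.759). Its late TG mice had 846 to 2241 normalized counts and its late WT mice 657 to 1095, with 8 of 15 TG mice above all WT mice. For 26 lysosome genes the median was 0.13, with 8 positive at that threshold, and for 24 genes of reactive astrocytes 0.29, with 5 positive, again with none past the adjusted threshold. For 10 against 8 months alone the medians were 0.07 for complement and 0.12 for reactive astrocytes, and for 12 against 6 months 0.38 and 0.42.

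The interferon and antigen presentation genes had larger median switches than the lists above over the pooled ages. All 30 interferon-stimulated genes tested had a positive switch, 21 of them at an unadjusted p under 0.05 (3.12% of all genes were) and none past the adjusted threshold, with a median of 0.73. Of 18 antigen presentation genes, all were positive, 14 at that unadjusted threshold and none past the adjusted threshold, with a median also of 0.73. The medians of the TG minus WT difference were -0.29 early and 0.46 late for interferon genes, and -0.33 and 0.34 for antigen presentation. They varied with age within a period, at -0.41, -0.09, 0.35 and 0.47 at 6, 8, 10 and 12 months for interferon genes, and at -0.45, -0.28, 0.12 and 0.58 for antigen presentation. The late minus early medians in TG mice were 0.01 and 0.25, and in WT mice -0.67 and -0.50. In WT mice 8 of the 30 interferon genes fell at the adjusted threshold, which 0.699% of all genes passed in either direction, and in TG mice none did. H2-D1, an MHC class I heavy chain, was the antigen presentation gene that fell in WT (-0.57, adjusted p = 0.038). By these medians the early to late difference was larger in WT than in TG mice. Other lists had the same order, with medians of 0.15 in TG and -0.23 in WT for complement, 0.04 and -0.24 for reactive astrocytes, and 0.02 and -0.13 for lysosome genes. The list of disease-associated microglia genes had 0.16 in TG and -0.14 in WT, and Cst7 itself 2.26 and -0.40.

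The levels by mouse show the same. Summed over the 30 interferon genes, early WT mice had 247 to 624.8 CPM (median 339), early TG mice 250.03 to 454 (median 319), late WT mice 189 to 381 (median 253) and late TG mice 232 to 595 (median 283). Antigen presentation genes summed to 147 to 577 CPM in early WT (median 267), 175 to 320 in early TG (median 242), 165 to 318 in late WT (median 214) and 197 to 773 in late TG (median 259). All groups overlapped, and a few mice stood high: WT 6 months replicates 3 and 5, TG 10 months replicate 5 for interferon, and TG 12 months replicate 4 for both. Without TG 10 months replicate 5 the median late difference of the interferon genes was 0.29, and without WT 6 months replicate 5 their early difference was -0.18. Without TG 12 months replicate 4 the late median of antigen presentation was 0.19, and without WT 6 months replicate 5 its early median was -0.17. The median switches stayed between 0.56 and 0.80 and between 0.54 and 0.80 when any 1 mouse was left out. For 10 against 8 months alone they were 0.48 and 0.28, and for 12 against 6 months 0.88 and 0.92.

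**Figure D3:**
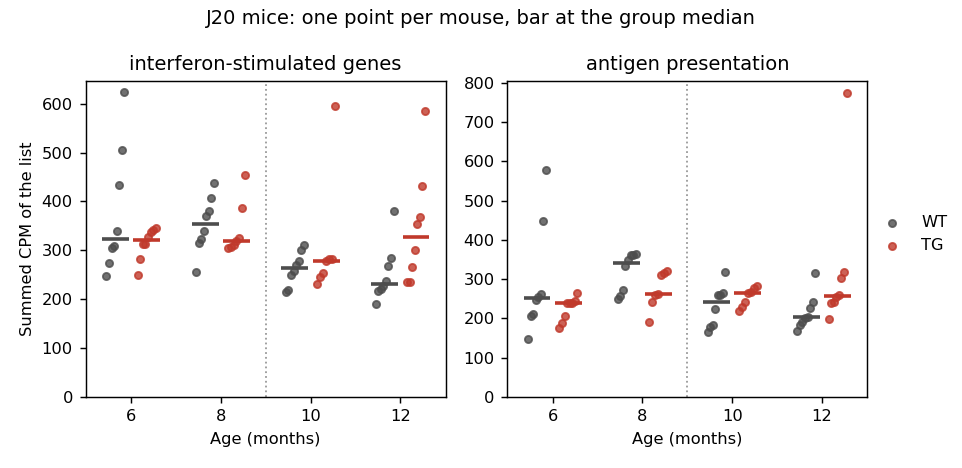
Summed CPM of the interferon-stimulated genes (left) and the antigen presentation genes (right) against age in months, 1 point per J20 mouse, grey for WT and red for TG, with a bar at the median of each group. Late WT mice lie at 189 to 381 CPM and early WT mice at 247 to 624.8 CPM on the left, and the highest point on the right, at 773 CPM, is TG 12 months replicate 4.

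Ifitm1 and Ifitm3, membrane proteins that block virus entry, had the smallest p-values among the interferon genes. Ifitm3 ran from 167 to 473 normalized counts in early WT (median 279.6), 142 to 388 in early TG (median 208), 137 to 228 in late WT (median 165) and 133 to 401 in late TG (median 228). The groups overlapped in both periods, with 4 early TG mice below all WT mice and 7 late TG mice above all WT mice, and neither period passed (adjusted p = 0.392 early and 0.321 late). Its switch was 0.78 (SE 0.214, adjusted p = 0.759), with a fall in WT of -0.74 (adjusted p = 0.0104) and 0.04 in TG. Ifitm1 had a switch of 0.82 and fell by 0.74 in WT (adjusted p = 0.0105). Irf7, the transcription factor that drives interferon production, fell by 1.02 in WT (adjusted p = 0.022) beside -0.03 in TG, and Oas1a, a sensor of double-stranded RNA, fell by 1.14 in WT (adjusted p = 0.020) beside -0.05 in TG. Dhx58 (LGP2, an RNA helicase) and Ifi35, which complete the interferon-related genes among those of smallest p, had switches of 0.79 and 0.66, each with negative early and positive late values. Cybb had a switch of 1.21 (SE 0.300, adjusted p = 0.759), of which -0.91 was the WT fall (adjusted p = 0.0229) and 0.29 the TG difference. Myo1f, a myosin of immune cells, fell by 0.33 in WT (adjusted p = 0.0461) with a switch of 0.47. Slc15a3, a lysosomal peptide transporter, had a switch of 0.68 and a late difference of 0.58 (adjusted p = 0.0516).

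Markers of other cell types were measured beside these lists. In WT mice 4 of 8 endothelial markers fell from the early to the late ages at the adjusted threshold (0.699% of all genes passed in either direction), and all 8 had negative values at an unadjusted p under 0.05 (median of the 8, -0.29). Their sum was 288 to 421 CPM in early WT, 224 to 402 in late WT, 264 to 401 in early TG and 221 to 409 in late TG. In TG mice their late minus early median was -0.14, with none past the adjusted threshold. Of 7 mural markers 1 fell in WT at the adjusted threshold (median -0.23 in WT and 0.04 in TG). The late minus early median of the meningeal fibroblast markers was -0.45 in WT and -0.04 in TG. The median switch was 0.20 for endothelial, 0.40 for 7 mural, 0.44 for 8 meningeal fibroblast, 0.23 for 10 oligodendrocyte and 0.45 for 10 lymphocyte and monocyte markers, with none past the adjusted threshold. Mural and meningeal medians changed sign with the ages used, at -0.05 and -0.16 for 10 against 8 months and 0.82 and 1.02 for 12 against 6 months. For endothelial markers these medians were 0.08 and 0.34, for oligodendrocyte markers 0.31 and 0.13, and for lymphocyte and monocyte markers 0.59 and 0.57. Hippocampal, photoreceptor and pineal, and choroid plexus markers had negative median switches, at -0.35, -0.51 and -0.11. With 1 mouse left out, the hippocampal value lay between -0.57, without WT 6 months replicate 4, and -0.14, without TG 8 months replicate 7. It was -0.06 for 10 against 8 months, -0.69 for 12 against 6 months and -0.03 with a block by the sample ID's letter. The median switch of the photoreceptor and pineal markers was 0.19 without WT 12 months replicate 3. It was 0.33 for 10 against 8 months and -1.51 for 12 against 6 months. That of the choroid plexus markers was -1.45 for 10 against 8 months, 0.66 for 12 against 6 months and -0.44 without TG 10 months replicate 2. Meningeal fibroblast markers summed to 318 to 665 CPM in early WT, 264 to 450 in late WT, 237 to 828 in early TG and 277 to 825 in late TG. Of 8 hippocampal markers, 6 were higher at the late ages in WT mice at an unadjusted p under 0.05 (6.41% of all genes were), with a median of 1.00, and their median was 0.54 in TG mice. Their summed level was lower late in WT and higher late in TG by its medians, at 481 CPM in early WT, 455 in late WT, 390 in early TG and 440.3 in late TG. Of 7 thalamus markers 1 passed late, higher in TG, beside 0.122% of all genes. In that list 2 had a positive late value, with a median of -0.03 (-0.08 to 0.01 with 1 mouse left out). The part of these cell types, or of the borders of the dissection, in the values of the gene lists was not tested.

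Differences that went the other way did not pass the switch test. Pvrl3 (nectin-3, an adhesion protein of synapses, chr16:46394858-46496967) had the smallest p. Late WT mice had 196 to 378 normalized counts (median 264) and late TG mice 82.9 to 248 (median 173), with 11 of 15 TG mice below all WT mice. Early WT mice had 110 to 422 (median 168) and early TG mice 124 to 321 (median 198), all within the WT range. The log2 fold change was -0.59 late (SE 0.129, adjusted p = 0.0271) and 0.11 early (adjusted p = 0.797), and the switch was -0.69 (SE 0.183, 95% interval -1.06 to -0.33, unadjusted p = 3.5e-04, adjusted p = 0.759). The late call was lost with 4 groups of genotype and period in place of 8 (adjusted p = 0.0526), and in 7 of the 62 fits without a mouse: those without TG 10 months replicate 1, 2, 4, 5 or 7, WT 10 months replicate 2 or WT 12 months replicate 1.

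Serpinb8 and Otof were higher in TG mice at the early ages pooled. With each early age tested alone, on fewer mice, both passed at 8 months and neither at 6 months. Serpinb8, a serine protease inhibitor, ran from 3.52 to 57.7 normalized counts in early WT (median 9.83) and 11.4 to 56.5 in early TG (median 28.2), and from 15.3 to 42.4 in late WT (median 24.1) and 17.4 to 85.2 in late TG (median 28.0). TG ranges overlapped between the periods, and WT levels were higher late, by 0.99 (adjusted p = 0.0331). The log2 fold change was 1.28 early (adjusted p = 0.0054) and 0.38 late, with a switch of -0.91 (SE 0.326, unadjusted p = 0.0071, adjusted p = 0.762). With 4 groups in place of 8 the early calls of Serpinb8 and Otof were lost (adjusted p = 0.0819 and 0.0822). Otof, which encodes the calcium sensor otoferlin, had medians of 99.4 in early WT, 166 in early TG, 173 in late WT and 179 in late TG. It rose in WT by 0.84 (adjusted p = 0.0105), and its log2 fold change was 0.85 early (adjusted p = 0.0263) and 0.13 late, with a switch of -0.72 (adjusted p = 0.762). Its early call was lost without WT 6 months replicate 1, TG 6 months replicate 4, TG 8 months replicate 4 or TG 8 months replicate 5. Krt9, a keratin, rose in WT as well, by 0.96 (adjusted p = 0.0105), and stood 1.03 higher in TG early (adjusted p = 0.0131) and 0.57 late. In these genes the WT mice of 6 and 8 months had the lowest median.

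Erlin1, a cholesterol-binding protein of the endoplasmic reticulum, had a narrow spread, from 212 to 330 normalized counts in early WT (median 253) and 267 to 397 in early TG (median 315). Late WT (204 to 375, median 294) and late TG (245 to 338, median 287) did not stand apart. It was 0.30 higher early (adjusted p = 0.0314) and -0.01 late, with a switch of -0.31 (SE 0.0945, adjusted p = 0.762). Agpat4, an acyltransferase of phospholipid synthesis, went the other way, at -0.19 early (adjusted p = 0.0292) and 0.00 late, with a switch of 0.20 (SE 0.0583, adjusted p = 0.759). Adcyap1, the neuropeptide PACAP, rose in WT by 0.49 (adjusted p = 0.0478) with a switch of -0.66 (SE 0.185, adjusted p = 0.759). The other genes with a negative switch of small p were Suv39h2 (a histone methyltransferase, -0.47), Tdrd1 and Ddx4 (germ cell RNA proteins, -0.89 and -0.86), Mettl10 (a lysine methyltransferase, -0.29), 3830408C21Rik (-0.52), 3110057O12Rik (-0.45) and 4932415G12Rik (-0.25). Their adjusted p-values were 0.759 to 0.762.

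**Figure D4:**
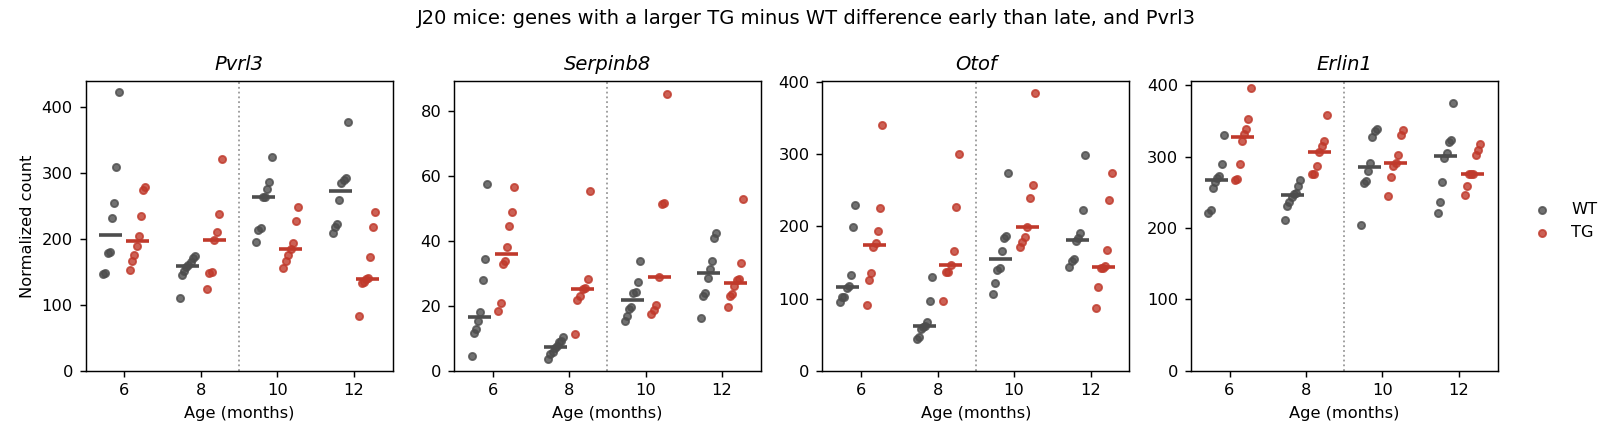
Normalized counts of Pvrl3, Serpinb8, Otof and Erlin1 on linear axes against age in months, 1 point per J20 mouse, grey for WT and red for TG, with a bar at the median of each group. For Pvrl3 11 of 15 late TG mice lie below all late WT mice, and for Serpinb8 the WT medians are 9.83 early and 24.1 late beside 28.2 and 28.0 in TG.

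**Figure D5:**
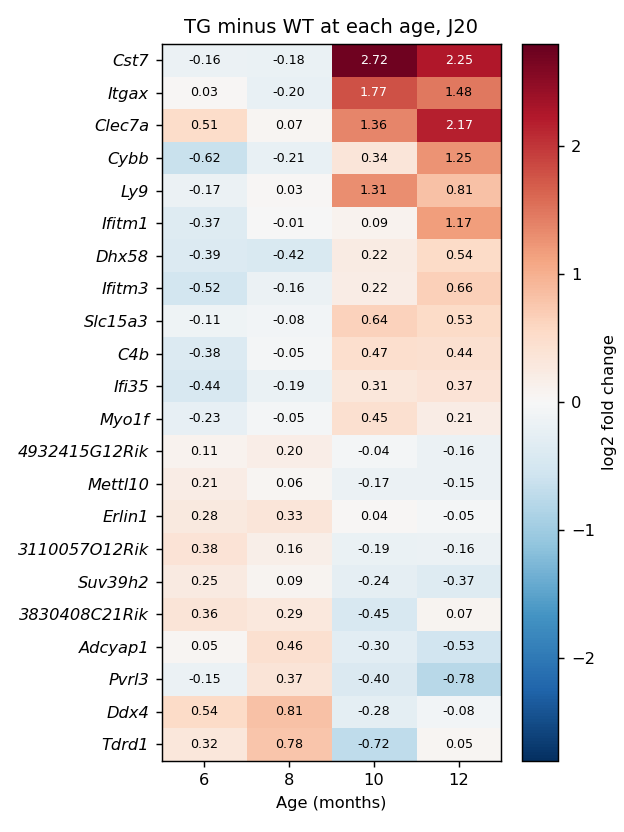
TG minus WT log2 fold change at 6, 8, 10 and 12 months for the 2 genes past the switch test and the 20 of smallest p that did not pass, red for higher and blue for lower in TG. Cst7 goes from -0.16 and -0.18 to 2.72 and 2.25, and Pvrl3 from -0.15 and 0.37 to -0.40 and -0.78.

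The remaining early calls kept their sign at the late ages. Htr1a and Htr7, serotonin receptors, were lower in TG early, at -0.47 (adjusted p = 0.0014) and -0.41 (adjusted p = 0.0054), and were -0.32 and -0.29 late. The other serotonin receptors did not pass, so that 2 of 13 passed early, beside 0.127% of all genes. Of all 13 tested 8 had a positive early value, with a median of 0.04. That median was -0.001 without WT 6 months replicate 2, and -0.05 at 6 and 0.03 at 8 months. Htr1a ran from 624 to 1169 normalized counts in early WT and 321 to 875 in early TG, with 10 of 15 TG mice below all WT mice, and from 469 to 912 and 421 to 699 at the late ages. Its switch was 0.15 (95% interval -0.08 to 0.38) and that of Htr7 0.12 (-0.10 to 0.34). Hspa5 (BiP, the main chaperone of the endoplasmic reticulum) was -0.21 early (adjusted p = 0.0364) and -0.11 late. At the early ages 11 of 15 TG mice were below all WT mice, and at the late ages 1 was. Of 23 chaperone genes 13 were lower at an unadjusted p under 0.05 early, where 5.66% of all genes were, and 2 late, where 4.41% were, with a median switch of 0.08 (0.01 for 10 against 8 months). Markers of other cell types were also lower in TG early at that threshold, 6 of 10 for oligodendrocytes (median -0.33, with -0.16 at 6 and -0.51 at 8 months), 5 of 8 for endothelial cells (median -0.22) and 6 of 14 homeostatic astrocyte genes (median -0.11), and their part in the chaperone values was not tested. Nr4a2, an immediate early transcription factor, was -0.39 early (adjusted p = 0.0314) and -0.19 late. Calb1, the calcium buffer calbindin, was 0.45 higher early (adjusted p = 0.0389) and 0.24 late. Of 17 interneuron genes 1 passed early, higher in TG, beside 0.127% of all genes. In that list 7 had a positive early value, with a median of -0.08 (-0.16 at 6 and 0.07 at 8 months). Cyp11a1, the side-chain cleavage enzyme of steroid synthesis, was -0.80 early (adjusted p = 0.0054) and -0.59 late (adjusted p = 0.0995), and Slc6a11, a GABA transporter of astrocytes, -0.30 early (adjusted p = 0.0292) and -0.18 late. Lmo4, Dclk3, Adora1, Ppp1cc and Lgr6 had early values of 0.22, 0.47, -0.23, -0.21 and -0.68, and late values of 0.17, 0.30, -0.14, -0.14 and -0.30. Oit3, with an early value of 2.14, rested on a mean of 1.68 normalized counts. No switch of these genes passed. Among the early calls named here, App, Ccdc80, Serpinb8, Krt9, Htr1a, Htr7 and Cyp11a1 held in all 62 fits without a mouse, and the others in 37 (Oit3) to 59 (Ppp1cc) of them. With a block by the sample ID's letter the early calls of Hspa5 and Lgr6 were lost.

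Of the 4 genes called in both periods, Ccdc80 and Gm19522 lay on chromosome 16, which holds 3.1% of the genes tested. Mouse App lies there too, but the authors attribute its apparent rise to sequence shared with the human transgene. Ccdc80 (chr16:45094053-45127924), a secreted matrix protein, ran from 48.8 to 112 normalized counts in early WT and 109 to 172 in early TG, and from 58.2 to 100.4 and 91.7 to 164 late, with 14 of 15 TG mice above all WT mice in each period. Its log2 fold change was 0.74 early (adjusted p = 3.5e-07) and 0.67 late (adjusted p = 3.7e-06), with a switch of -0.07 (95% interval -0.33 to 0.19). Gm19522 (chr16:42884370-42912070) was -0.72 early and -0.80 late, with a switch of -0.09. Slc35a5 (chr16:45139573-45158673), a nucleotide sugar transporter, was -0.23 late (adjusted p = 0.0271) and -0.20 early (adjusted p = 0.0759). With Pvrl3, which like Slc35a5 passed in the late period only, 4 called genes lay within 3.61 Mb that hold 36 tested genes, beside 0.122% of all genes called late and 0.127% early. The window was drawn after their values were seen. The strain name places the transgene in Zbtb20 (chr16:43247284-43619123), inside this window, and whether that bears on these values was not tested. Zbtb20 itself was -0.26 early and -0.22 late and did not pass. Unc13c, on chromosome 9, was -0.54 early and -0.60 late, with a switch of -0.05. Its ranges overlapped in both periods, with 8 early and 6 late WT mice above all TG mice. Bbox1 (carnitine synthesis), Tra2a (a splicing factor), Cstf2 (a polyadenylation factor) and Gng4 (a G protein subunit) were lower late, at -0.52, -0.30, -0.20 and -0.26, and were -0.29, -0.14, -0.08 and -0.24 early. Synpo2, an actin-binding protein, was 0.41 higher late (adjusted p = 0.0215) and 0.24 early. Of the late calls, Gng4 held in 29 of the 62 fits without a mouse, Bbox1 in 53, Slc35a5 and Synpo2 in 57, Tra2a in 58 and Cstf2 in 61.

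The same contrast was formed in the other line of the series. rTg4510 mice express mutant human tau in forebrain neurons, and their late and early ages are 6 and 8 months against 2 and 4 months, so the ages and strain background differ. In a fit of all 121 mice, 1343 of 19489 genes (6.89%) passed the switch test in rTg4510, and 128 (0.657%) differed between the lines. In rTg4510 TG mice Cst7 ran from 0 to 3.89 normalized counts at 2 months, 1.26 to 253 at 4 months, 68.7 to 167 at 6 months and 39.2 to 161 at 8 months. The switch of Cst7 was 3.69 in rTg4510 (SE 0.993, adjusted p = 0.0097) and 2.65 in J20 in this fit (SE 0.518, adjusted p = 0.0274), a difference of -1.05 (SE 1.05, adjusted p = 0.774). That of Itgax was 2.23 in rTg4510 (SE 0.405, adjusted p = 4.7e-05) and 1.71 in J20 (SE 0.364), a difference of -0.53 (SE 0.556, adjusted p = 0.787), and in this wider fit the J20 switch of Itgax had an adjusted p of 0.0779. The standard errors leave room for a difference of either sign. Of the genes named by rule, for which the lines were compared, Gfap, Cd68, C4b and Agpat4 differed between the lines, with J20 minus rTg4510 values of -1.41 (adjusted p = 0.0016), -0.81 (0.0142), -1.14 (0.0407) and 0.32 (0.0333). For Gfap the switch was 1.60 in rTg4510 and 0.20 in J20.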

How the data were processed

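The authors aligned reads with STAR and counted them with featureCounts (mm10, GRCm38.p4, per the submitters' processing notes). They deposited raw counts per gene for 23337 genes, and the libraries were stranded, although the strand setting of the counting is not given in the sources used here. Some gene symbols had been turned into dates, and none of these is named. From those counts, 18878 genes with at least 6 counts over the 62 J20 mice were tested in edgeR 4.0.16 (R 4.3.3), with TMM scaling, 8 group means of genotype and age, and robust quasi-likelihood F tests. P-values were adjusted over all genes (Benjamini and Hochberg, threshold 0.05). Each period is the unweighted mean of its 2 ages, and the switch is the late minus the early TG minus WT difference. The standard error is the log2 fold change divided by the square root of F, and intervals are 95%. Normalized counts use DESeq2 1.42.0 size factors. CPM uses the TMM-scaled library totals. Intervals and tests cover the spread between mice, each 1 library, sampled once.

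Genes were named by rule: App, the genes past the switch test, up to 10 further genes of smallest p in each direction with a mean of at least 10 normalized counts, the 10 of smallest p in each direction among calls of each period, and list members that passed. For list members the rule counts the switch, late and early tests only. Members of the lists given as examples that did not pass (Trem2, Tyrobp, Lyz2, Apoe, Lpl, P2ry12, Tmem119, Cx3cr1, C1qa, C1qb and C1qc), and Zbtb20, fall outside this rule and were chosen after their values were seen. So were B2m, Olfml3, H2-D1, Irf7 and Oas1a, which passed only the late minus early test in WT mice. The members and lists were chosen with earlier results of these data known. Alternatives were DESeq2, its size factors in edgeR, no filter, filterByExpr, a block by the sample ID's letter, RNA integrity as a covariate, no robust estimation, 4 groups in place of 8, outer or inner ages, a threshold of 0.01, and leaving out each mouse. The model step was tested on simulated data. J20 libraries were sequenced in several pools, and which mouse was in which pool is not given in the sources used here.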

Additional observations from a re-analysis of the deposited data

Results flagged for a closer look

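Cst7 and Itgax differed in their TG minus WT effect between the late and the early ages, with switches of 2.66 and 1.71 in edgeR's test of the difference itself (adjusted p = 0.0019 and 0.0142).

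Single mice far from the rest of their group of 7 or 8 were sought for 23 genes, App, the 2 genes past the switch test and the 20 added by smallest p, in 184 sets of a gene and a group. The gap to the nearest mouse was set against Dixon's 95% limit, and 25 values passed it. Chance passes that limit in about 1 set in 20 where values are normally distributed. Normalized counts, low for some of these genes, need not be, so the rate here is not known. Values are normalized counts. WT 8 months replicate 4 was the highest of its group for Cst7 (20.4), Itgax (35), Clec7a (27.7) and Slc15a3 (96.3). WT 12 months replicate 3, the library high in photoreceptor and pineal markers, was the highest for Cst7 (18.6), Itgax (17.5) and Ly9 (25.6). Both are WT mice with high values of genes raised in late TG mice, the former at an early and the latter at a late age, and the switch with both left out is given with the results of Cst7 and Itgax.

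Among TG mice, TG 12 months replicate 6 was high for Cst7 (88.4) and replicate 7 for Clec7a (102), TG 6 months replicate 1 (27.3) and TG 8 months replicate 3 (20.7) for Itgax, and TG 10 months replicate 5 for Ifitm3 (384) and Dhx58 (43.7). TG 10 months replicate 1 was high for Tdrd1 (14.9) and low for Mettl10 (125). WT 6 months replicate 5 was high for Cybb (107) and Mettl10 (192), WT 6 months replicate 8 for Adcyap1 (220), WT 6 months replicate 2 for Tdrd1 (21.2) and WT 10 months replicate 4 for Ifitm1 (66.4). WT 10 months replicate 8 was high for 3830408C21Rik (41.8) and 4932415G12Rik (690) and low for App (17800). WT 8 months replicate 1 was low for Pvrl3 (110), and WT 12 months replicate 2 was high for App (28100).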

How the results depend on the processing

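The switch calls were Cst7 and Itgax under DESeq2, its size factors, either filter, RNA integrity as a covariate, no robust estimation, 4 groups, and in all 62 fits without a mouse (2 to 2 genes). None passed for the outer ages (0) or the inner ages (0), each with fewer mice, and 1 passed at 0.01 (Cst7). The late count of 23 was 42 with DESeq2, 3 for the inner ages and 11 at 0.01, and 15 to 32 without 1 mouse, with 15 without TG 10 months replicate 7. The early count of 24 was 81 with DESeq2, 146 with RNA integrity as a covariate, 2 for the outer and 4 for the inner ages, 6 at 0.01, 13 without the 2 outlying WT mice (chosen after seeing the data), and 7 to 99 without 1 mouse. It was 99, 41 and 43 without WT 6 months replicate 8, WT 12 months replicate 8 and WT 8 months replicate 1, 58 without TG 6 months replicate 1 or 3, 52 without replicate 6, 14 without WT 6 months replicate 3, WT 8 months replicate 6, TG 6 months replicate 5 or TG 8 months replicate 7, 13 without TG 8 months replicate 4, 12 without WT 8 months replicate 4 or TG 6 months replicate 8, and 7 without WT 6 months replicate 1, TG 6 months replicate 4 or TG 8 months replicate 5. Beyond fewer mice or a stricter threshold, the cause was not tested. With 4 groups 19 of the 23 late and 19 of the 24 early calls were shared, and Cstf2, Gng4, Calb1 and Nr4a2 were also lost. No value changed sign as a call. With a replicate block by the sample ID's letter, the switch count was 2, the late count 47 (all 23 kept) and the early count 31 (22 kept, without Hspa5 and Lgr6, each at an adjusted p of 0.0503). The median switch of the hippocampal markers was then -0.03. The labels do not say what the letters stand for, and the letters were not taken as pairs. Of 29 pairs of mice of the same letter and age, 22 correlated over 0.1, with a mean of 0.28 and a lowest of -0.54. The mean correlation was 0.18 for mice of the same letter and -0.03 for mice of other letters. Depth limits genes of few counts, Cst7 and Clec7a among them.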
